A study of Arabidopsis thaliana with 6 samples.

Results

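The genes described are 10 of the flavonoid and anthocyanin pathway of Arabidopsis thaliana, out of 36917 genes in the count files. They were chosen by identifier: the enzyme genes CHS (AT5G13930), CHI (AT3G55120), F3H (AT3G51240), F3'H (AT5G07990), FLS1 (AT5G08640), DFR (AT5G42800) and LDOX (AT4G22880), and the regulator genes MYB12 (AT2G47460), MYB111 (AT5G49330) and PAP1 (AT1G56650). All 10 occurred in the files, and 5 passed the filter on low counts. Gene counts were compared between 3 RNA-seq libraries of wild-type Col-0 plants (replicates 2, 3 and 4) and 3 of the fbn6-1 mutant, the insertion line GK_159E10 in the same Col-0 ecotype (replicates 1, 2 and 3). FBN6 encodes FIBRILLIN6, a plastid protein of the fibrillin family. Plants of both groups were sampled at 3 weeks from soil in a greenhouse, with days of 16 h light and 8 h dark and a light intensity near 120 µmol m-2 s-1. The labels name no light stress or cadmium treatment for these libraries, and they do not say whether a library is 1 plant or a pool. The p-values of the fits with the filter therefore measure the spread between libraries, which may be partly technical. The mutant is represented by 1 insertion line.

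Flavonoids are made from the amino acid phenylalanine by way of the general phenylpropanoid pathway. Chalcone synthase (CHS) and chalcone isomerase (CHI) build the flavanone skeleton, and the flavanone and flavonoid hydroxylases (F3H and F3'H) oxidise it to dihydroflavonols. At that point the pathway forks: flavonol synthase (FLS1) makes flavonols, which screen ultraviolet light in leaves, while dihydroflavonol reductase (DFR) and leucoanthocyanidin dioxygenase (LDOX) lead to the red anthocyanin pigments. MYB12 and MYB111 are activators of the early genes and of FLS1, and PAP1 activates the anthocyanin branch together with partners of the bHLH and WD40 families.

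The libraries held 8668956 to 12287197 counts, of which 3257770 to 4955128 fell on nuclear genes. FBN6 had 1845, 1557 and 2201 counts in wild-type replicates 2, 3 and 4, against 7, 3 and 3 in mutant replicates 1, 2 and 3, so the libraries matched their genotype labels. Wild-type replicate 3 stood apart from the rest of its group: a chi-square test of counts over genes gave 13.9 and 13.0 per degree of freedom against wild-type replicates 2 and 4, while the other pairs within a genotype gave 4.53 to 5.51. Without that library 1238 genes were called, and without any other single library 272 to 348. Leaf markers were abundant in every library, and their summed levels did not overlap between the genotypes (4 genes, 21216 to 21777 CPM in wild type, against 17845 to 19065 in the mutant; CPM is the count scaled by the TMM-adjusted library size). None of the 4 was called, with log2 fold changes of -0.31 for CA1, -0.28 for RCA, -0.24 for RBCS1A and -0.13 for LHCB1.3. The groups overlapped in LHCB1.3 alone, while they did not overlap in 23.0% of all tested genes. The summed level of 5 root markers was 0.264 to 1.20 CPM in wild type and 1.59 to 1.92 CPM in the mutant, with the endodermis gene CASP1 at 0 in all libraries. PYK10 carried that difference (0, 2 and 1 counts in wild type, against 13, 10 and 6 in the mutant), and the sums of the other 4 overlapped (0.176 to 0.958 CPM and 0.676 to 0.909 CPM). That of 4 flower markers was 1.05 to 1.36 CPM in wild type and 0.751 to 0.909 CPM in the mutant, with AP3 at 0 in all libraries. There SEP3 carried the difference (5, 5 and 5 counts against 0, 2 and 0), and the sums of the other 3 overlapped.

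Because shared light-response elements are a known feature of these genes, the 250 bases before the annotated gene start were read from the RefSeq TAIR10.1 genome. The G-box CACGTG, a binding site of bHLH and bZIP factors such as HY5, stood in the windows of CHS, F3H, DFR and MYB12, which is 4 of 10, against 6.49% of 27443 protein-coding genes. The ACGT core, which every G-box contains, occurred in 5 of 10 (the same genes and MYB111), against 44.1% of all windows. The MYB element ACCTACC was in 0 of 10 windows and in 1.16% of all, searched like the others on both strands. The windows of CHS (chr5:4488226-4488475, plus strand), F3H (chr3:19024942-19025191, plus strand) and DFR (chr5:17166033-17166282, minus strand) are shown because these genes share the box but lie at very different transcript levels, as given below. Capitals mark each ACGT core, and CACGTG where it is a full G-box.
CHS: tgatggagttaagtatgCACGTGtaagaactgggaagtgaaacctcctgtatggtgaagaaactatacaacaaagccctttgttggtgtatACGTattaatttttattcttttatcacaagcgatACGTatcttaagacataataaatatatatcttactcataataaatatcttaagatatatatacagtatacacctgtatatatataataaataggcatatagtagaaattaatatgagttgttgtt
F3H: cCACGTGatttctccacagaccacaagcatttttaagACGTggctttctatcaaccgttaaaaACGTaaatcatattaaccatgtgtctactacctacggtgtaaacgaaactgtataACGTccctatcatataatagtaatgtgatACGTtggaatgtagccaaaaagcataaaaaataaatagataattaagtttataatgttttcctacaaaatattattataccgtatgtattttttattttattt
DFR: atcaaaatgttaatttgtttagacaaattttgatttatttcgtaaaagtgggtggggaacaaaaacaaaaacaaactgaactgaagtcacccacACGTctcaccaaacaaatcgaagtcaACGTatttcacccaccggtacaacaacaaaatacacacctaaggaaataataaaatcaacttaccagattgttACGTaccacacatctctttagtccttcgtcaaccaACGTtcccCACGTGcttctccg
In CHS the G-box lay at positions -233 to -228 before the gene start, in F3H at -249 to -244 and in DFR at -14 to -9. These are matches of letters only; binding was not measured.

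The early enzyme genes were transcribed in both genotypes, and none of the 5 tested genes differed at an adjusted p under 0.05. The share of all 16584 tested genes that was called is 3.82%. At an unadjusted p under 0.05, 1 of the 5 genes was counted, against 17.8% of all tested genes, and DESeq2, limma-voom and RLE scaling each called 0 of them. Raw counts per library and the level order are shown in the plot of counts by library.

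**Figure D1:**
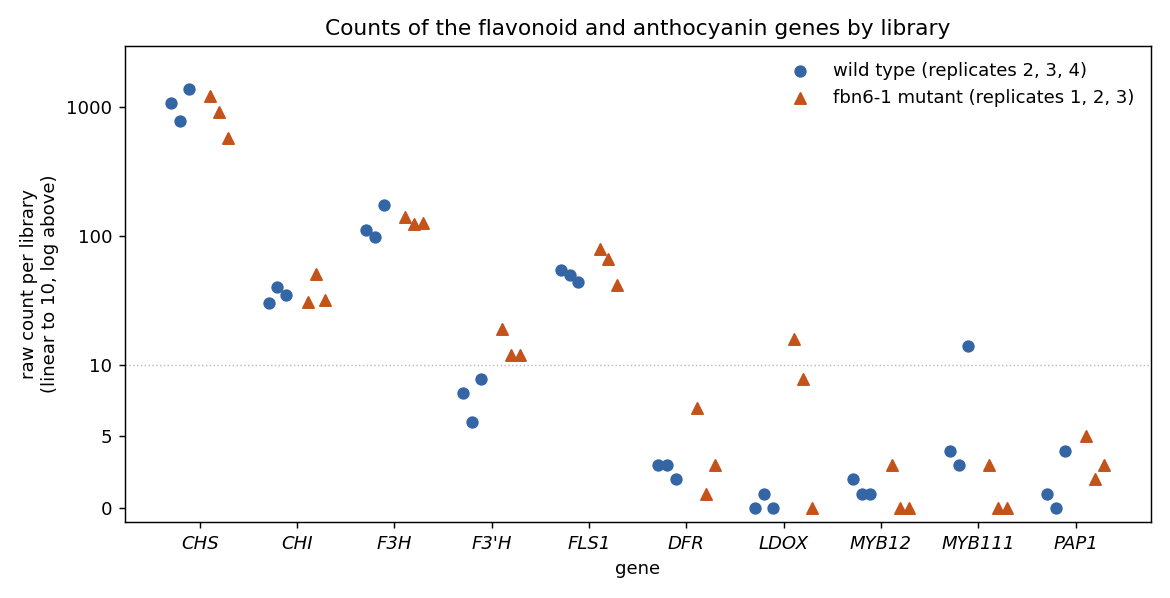
Raw counts of the 10 genes in each library, on an axis that is linear up to 10 counts (dotted line) and logarithmic above; circles are wild-type and triangles mutant libraries, each group in the order of its replicate numbers. CHS lies between 580 and 1392 counts, while DFR, MYB12 and PAP1 do not exceed 7 counts in any library.

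CHS, the entry enzyme of the pathway, was the most abundant of the 10 and had a log2 fold change below 0 that was not called. Its counts were 1087, 782 and 1392 in wild-type replicates 2, 3 and 4, against 1216, 927 and 580 in mutant replicates 1, 2 and 3, or 114, 93.7 and 122 CPM against 91.3, 98.7 and 65.9 CPM. Mutant replicate 3 was the lowest library, and mutant replicate 2 stood above wild-type replicate 3, so the groups overlapped. The mean was 110 ± 14.7 CPM in wild type and 85.3 ± 17.2 CPM in the mutant (SD, n = 3 each). The log2 fold change was -0.37 (SE 0.14, 95% interval -0.67 to -0.06), and CHS was not called (edgeR quasi-likelihood test, adjusted p = 0.190). The call turned on the settings: CHS was called lower without wild-type replicate 3 (-0.47, adjusted p = 0.0341) and without the low-count filter (adjusted p = 0.0424), while without mutant replicate 3 the value shrank to -0.21 (adjusted p = 0.494). The unfiltered p-value rests on a spread pooled over genes, with little weight on the CHS libraries themselves.

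F3H, which makes dihydroflavonols, was second in abundance, and its group means lay within 1 SD of each other. Counts were 111, 98 and 173 in wild type, against 142, 124 and 127 in the mutant. The levels were 12.9 ± 2.03 and 12.8 ± 1.92 CPM (SD, n = 3 each). This is a log2 fold change of -0.03 (SE 0.16, 95% interval -0.37 to 0.32, adjusted p = 0.950). The value belongs to a locus and not safely to 1 strand: the long noncoding RNA AT3G51238 overlaps F3H by 1588 bp on the opposite strand and was listed with 111, 98 and 168 counts in wild type, against 143, 121 and 129 in the mutant. Those numbers differ from the F3H counts by at most 5 in every library, and since no source used here gives the strand setting of the counting, the reads of both genes cannot be told apart.

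CHI, the isomerase that follows CHS, held 30, 40 and 35 counts in wild type, against 31, 51 and 32 in the mutant. Mutant replicate 2 was the highest library and mutant replicate 1 the lowest in CPM, so the mutant range contained the whole wild-type range. The log2 fold change was 0.03 with a wide interval (SE 0.31, 95% interval -0.62 to 0.69, adjusted p = 0.972), so a difference of up to that size could have been missed. Without mutant replicate 2 it was -0.32.

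FLS1, the enzyme of the flavonol branch, was similarly abundant. Its counts were 55, 50 and 44 in wild type, against 79, 67 and 42 in the mutant, or 5.21 ± 1.17 and 5.94 ± 1.18 CPM (SD, n = 3 each). The highest library was mutant replicate 2 and the lowest wild-type replicate 4, and the others were interleaved. The log2 fold change was 0.21 (SE 0.22, 95% interval -0.26 to 0.68, adjusted p = 0.692).

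F3'H, which adds the second hydroxyl group of the quercetin and cyanidin series, was the only tested gene of the 10 whose groups did not overlap. It had 8, 6 and 9 counts in wild type, against 19, 12 and 12 in the mutant, or 0.783 ± 0.0602 and 1.36 ± 0.0748 CPM (SD, n = 3 each). With 6 to 19 counts per library, these small SDs do not measure the counting error. All 3 mutant libraries stood above all 3 wild-type libraries, and groups failed to overlap in 23.0% of all tested genes. The log2 fold change of 0.78 was not called (SE 0.37, 95% interval -0.01 to 1.58, adjusted p = 0.289). F3'H passed the low-count filter only through the mutant libraries, so its place among the tested genes itself depended on the higher group. Of the root markers, PYK10 alone was also higher in all 3 mutant libraries, as given above, and the part of root RNA in this difference was not tested.

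**Figure D2:**
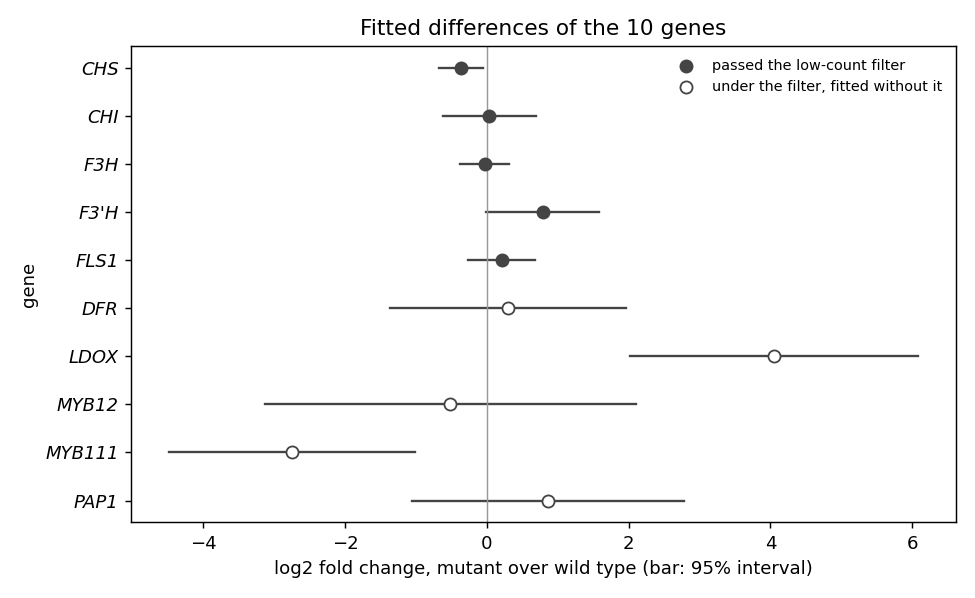
Log2 fold changes of the 10 genes, mutant over wild type, with 95% intervals; filled points passed the low-count filter, and open points are the 5 genes under it, fitted without the filter. The intervals of CHI, F3H, F3'H and FLS1 contain 0, and that of CHS ends at -0.06. Those of the 5 open points each span more than 3 log2 units and come from a fit with the spread pooled over genes. Of these, LDOX (2.01 to 6.08) and MYB111 (-4.49 to -1.02) do not contain 0.

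CHS transcripts dominated the pathway in every library. Of the summed counts of the 10 genes, CHS held 83.6%, 79.5% and 83.2% in wild-type replicates 2, 3 and 4, against 79.9%, 77.7% and 72.6% in mutant replicates 1, 2 and 3. The exact 95% binomial (Clopper-Pearson) intervals were 81.4 to 85.5 for the first of these libraries and 69.4 to 75.7 for the last. They cover counting error only. The groups overlapped in this share: wild-type replicate 3 (79.5%, interval 76.8 to 82.0) lay below mutant replicate 1 (79.9%, interval 77.8 to 81.9). There were 136, 130 and 155 CHS counts for each F3'H count in wild type, against 64.0, 77.3 and 48.3 in the mutant, so the groups did not overlap in this ratio. On the log2 scale the F3'H to CHS ratio was higher by 1.17 in the mutant, and by 0.99 to 1.33 when 1 library was left out. Both genes contribute to that difference, F3'H from few counts, and neither gene was called at the main settings. F3'H passed the low-count filter only through the mutant libraries, so the ratio repeats the values above and adds no support. Ratios of other gene pairs were not computed, so no share stands beside it.

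Per kilobase of annotated exon, the wild-type mean level was 64.6 CPM per kb for CHS and 8.53 for F3H, followed by CHI at 3.30 and FLS1 at 3.22. The library ranges of CHI and FLS1 overlapped, while those of CHS, F3H and this pair did not overlap in wild type. The other 6 genes had wild-type means between 0.0285 (LDOX) and 0.410 (MYB111) CPM per kb. The exon lengths are those of RefSeq TAIR10.1, since the annotation behind the counts is not given in the sources used here.

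The late genes of the anthocyanin branch were at or near the detection limit. DFR had 3, 3 and 2 counts in wild type, against 7, 1 and 3 in the mutant. Its pooled counts of 8 and 11 give a mutant to wild-type ratio of 1.28, with an exact 95% interval of 0.468 to 3.66 from counting error alone. A difference within that range was not detectable at this depth. The FLS1 to DFR ratio, which sets the flavonol branch beside the anthocyanin branch, was 18.3, 16.7 and 22 counts per count in wild type, against 11.3, 67 and 14 in the mutant. The value of 67 rests on a single DFR count, and the groups overlapped.

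LDOX, the enzyme after DFR, was listed in 2 mutant libraries and almost nowhere else. It had 0, 1 and 0 counts in wild-type replicates 2, 3 and 4, against 16, 9 and 0 in mutant replicates 1, 2 and 3. The mutant libraries disagreed with each other: replicates 1 and 2 stood at 1.20 and 0.958 CPM, and replicate 3 was at 0, like wild-type replicates 2 and 4. A count of 0 allows up to 3 counts, which is 0.341 CPM in mutant replicate 3. Pooled, 25 mutant counts against 1 give a ratio of 23.2, with an exact 95% interval of 3.80 to 953 that covers counting error only and not the spread between libraries. LDOX did not pass the low-count filter. Fitted without the filter, where 4.27% of 28860 genes were called, its log2 fold change was 4.05 (SE 1.04, adjusted p = 0.00453). That p-value rests on a spread pooled over genes, so the disagreement between the mutant libraries hardly enters it. In that fit LDOX was no longer called once mutant replicate 1 (3.39, adjusted p = 0.244) or wild-type replicate 4 (adjusted p = 0.0547) was left out. DESeq2 without the filter gave LDOX no adjusted p, so it could not have called the gene. The root marker PYK10 had 13, 10 and 6 counts in mutant replicates 1, 2 and 3, and the part of root RNA in the LDOX counts was not tested.

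Among the genes that carry anthocyanins onward, GSTF12, the glutathione transferase needed for their transport to the vacuole, was singled out after its values were seen. It had 2, 2 and 3 counts in wild type, against 8, 10 and 5 in the mutant. Its groups did not overlap, which held for 23.0% of all tested genes, but the share among genes under the filter was not counted. It was under the filter, and without the filter it was not called (log2 fold change 1.57, adjusted p = 0.301). GSTF12 overlaps AT5G17230 by 108 bp on the opposite strand. That neighbour held 1202 to 2045 counts per library, so the few GSTF12 counts are uncertain. The anthocyanin genes UGT79B1 and 5MAT, for a glycosyltransferase and a malonyltransferase, had 0 to 1 and 0 to 2 counts per library. Not all genes of their decoration list were that low. UGT75C1 had 27 to 45 counts, 3AT1 14 to 31 and 3AT2 9 to 15, and these passed the filter without a call.

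The MYB activators were also close to the detection limit, and none of MYB12, MYB111 and PAP1 passed the low-count filter. MYB111 had 4, 3 and 14 counts in wild type, against 3, 0 and 0 in the mutant, or 0.419, 0.359 and 1.23 CPM against 0.225, 0 and 0 CPM. The groups did not overlap in CPM, as in 23.0% of all tested genes, but the share among genes under the filter was not counted. Wild-type replicate 3 and mutant replicate 1 had the same 3 counts, and wild-type replicate 4 held most of the wild-type total. Pooled counts of 21 and 3 give a wild-type to mutant ratio of 7.54 (exact 95% interval 2.25 to 39.5, counting error only). Under the filter and so untested in the main fit, MYB111 was called lower without the filter (log2 fold change -2.75, SE 0.89, adjusted p = 0.0457). That call was lost without wild-type replicate 4 (-1.93, adjusted p = 0.633) and without mutant replicate 2 or 3 (adjusted p = 0.240 and 0.210). As for LDOX, the unfiltered fit of all libraries gave little weight to the spread between the libraries of MYB111.

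MYB12, its close relative, had 2, 1 and 1 counts in wild type, against 3, 0 and 0 in the mutant. With pooled counts of 4 and 3, the mutant to wild-type ratio of 0.696 had an interval of 0.102 to 4.12, and no difference was detectable at this depth. PAP1 had 1, 0 and 4 counts in wild type, against 5, 2 and 3 in the mutant, with a pooled ratio of 1.86 (0.578 to 6.92). Its groups overlapped through wild-type replicate 4. The target genes of MYB12 and MYB111 with enough counts, CHS, CHI, F3H and FLS1, are those given above, with log2 fold changes from -0.37 to 0.21 and no call.

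Around the 10 genes, 84 further genes in 8 lists were examined, of which 57 had enough counts. These lists were chosen with earlier results of these data known, so their medians and shares of calls are description only. In the list of early enzymes, 2 of 7 genes were tested and neither was called. CHIL, a CHI-like protein that assists CHS, stood at 11.4 ± 1.26 CPM in wild type and 11.8 ± 0.823 CPM in the mutant (log2 fold change 0.06, SE 0.14, adjusted p = 0.880). OMT1, a methyltransferase that acts on flavonols and phenylpropanoids, lay at -0.07. The remaining flavonol synthase genes FLS2 to FLS6 were under the filter, with FLS4 and FLS6 at 0 in all libraries. Of 8 other activators of the MYB, bHLH and WD40 classes, TTG1, the WD40 partner, was the 1 tested gene (-0.02, SE 0.14, adjusted p = 0.966). PAP2, MYB113, MYB114, TT8, GL3, EGL3 and MYB11 had 0 to 6 counts per library.

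Of 11 tested genes (14 listed) for sugar and acyl decoration of flavonoids, 2 fell and 0 rose, and the list median was -0.18 beside -0.0037 for all tested genes. UGT78D1, the flavonol rhamnosyltransferase, had 15.5, 19.3 and 16.7 CPM in wild type, against 12.2, 11.6 and 12.0 CPM in the mutant. The groups did not overlap and the gene fell by 0.52 on the log2 scale (SE 0.13, adjusted p = 0.0458). RHM1, which makes the UDP-rhamnose used in that step and in cell wall pectin, had 67.5, 78.3 and 69.9 CPM against 55.6, 53.3 and 53.5 CPM and fell by 0.41 (SE 0.10, adjusted p = 0.0378). A noncoding gene and a coding gene share 348 and 99 bp with RHM1 on the opposite strand, so its value is uncertain. Both calls were near the threshold. UGT78D1 was not called in any fit with 1 library left out (adjusted p 0.0648 to 0.159), and RHM1 kept it only without wild-type replicate 3. With library-size scaling, which moves the median of all genes to 0.13, both lost their calls at -0.38 and -0.28. DESeq2 and limma-voom did not call UGT78D1 either (adjusted p = 0.115 and 0.0516). UGT78D2, the flavonoid glucosyltransferase, was not called (-0.17).

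In the general phenylpropanoid pathway, which supplies the pathway with coumaroyl-CoA, all 8 genes were tested and 0 were called. The 2 with the largest differences were 4CL2 (-0.50, SE 0.36) and 4CL3 (-0.45, SE 0.22), ligase genes of which 4CL3 is tied to flavonoids. PAL1, a phenylalanine ammonia-lyase gene chosen after its values were seen, had 93.2, 104 and 104 CPM in wild type, against 134, 127 and 122 CPM in the mutant. The groups did not overlap, as in 23.0% of all tested genes, and the log2 fold change of 0.34 (SE 0.10, adjusted p = 0.0657) was short of the threshold. The other genes of this enzyme lay on both sides of 0, at -0.09 for PAL2, -0.11 for PAL3 and 0.41 for PAL4. In the neighbouring lignin and sinapate branch 0 of 9 tested genes were called. CAD5, a cinnamyl alcohol dehydrogenase gene, lay at 0.62 (SE 0.20, adjusted p = 0.104), and SNG1, which makes sinapoylmalate, at -0.34 (SE 0.14, adjusted p = 0.234) and was called without wild-type replicate 3 (-0.52, adjusted p = 0.00283). Of the transport and proanthocyanidin genes, which include seed coat genes, 1 of 7 was tested: DTX35, a transporter gene of flavonoid metabolism, lay at -0.12 (adjusted p = 0.711).

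**Figure D3:**
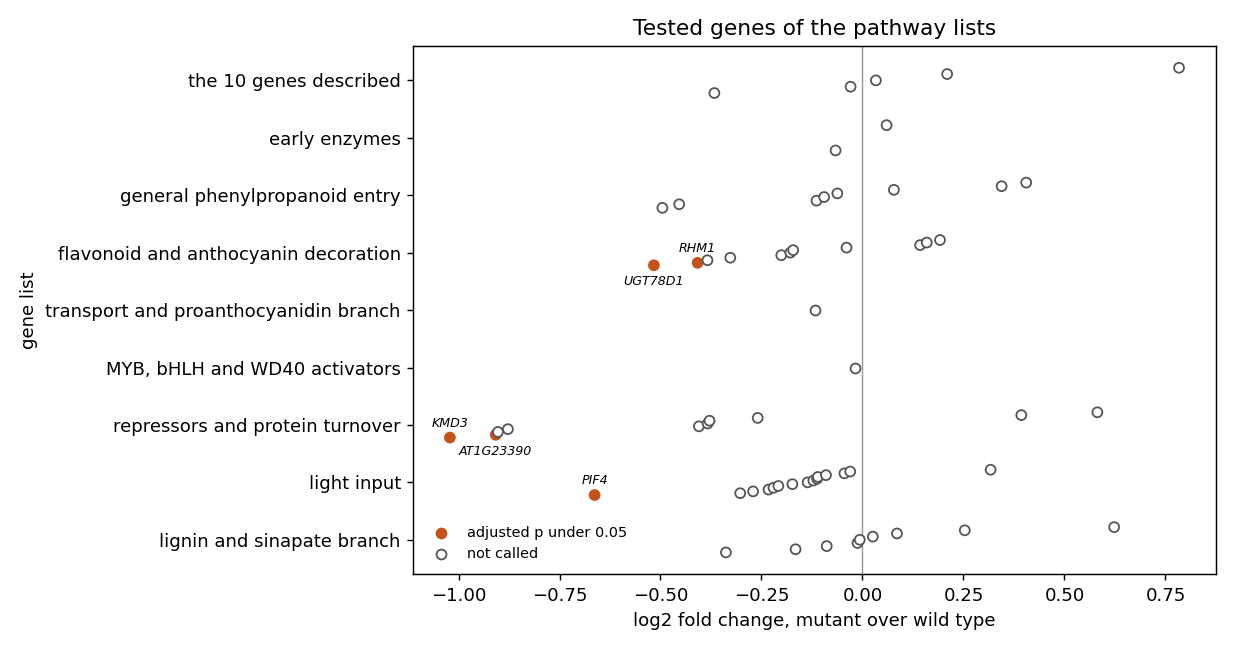
Log2 fold changes, mutant over wild type, of the tested genes in each list, with the 10 described genes in the top row; filled points have an adjusted p under 0.05. The 5 filled points are UGT78D1, RHM1, KMD3, AT1G23390 and PIF4, and all lie below 0.

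F-box genes stood among the called genes near the pathway. Of 10 tested genes among 14 listed for repression and protein turnover, 2 fell and 0 rose, and the median was -0.39. AT1G23390, annotated as a kelch repeat-containing F-box protein, had 68.8, 54.5 and 87.2 CPM in wild type, against 38.5, 40.2 and 33.6 CPM in the mutant. All mutant libraries lay below all wild-type libraries, and the gene fell by 0.91 (SE 0.15, adjusted p = 0.00343). It was called under all 14 alternatives in which it was fitted at that threshold. KMD3 (AT2G44130), of the KISS ME DEADLY family of F-box proteins, had 12.8, 10.8 and 15.1 CPM against 5.56, 6.17 and 7.61 CPM and fell by 1.02 (SE 0.18, adjusted p = 0.00521). KMD3 was called under 13 of those 14 alternatives. It overlaps AT2G44140 by 1445 bp on the opposite strand, so its value is uncertain.

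KFB20 and KFB50, F-box genes of the same list as KMD3 and chosen after their values were seen, were not called. KFB20 stood at 16.1 ± 6.22 and 8.94 ± 1.76 CPM (log2 fold change -0.88, SE 0.24, adjusted p = 0.0618) and KFB50 at 59.7 ± 6.86 and 45.9 ± 6.82 CPM (-0.38, SE 0.13, adjusted p = 0.112; SD, n = 3 each). On the opposite strand a noncoding gene shares 1389 bp with KFB50, whose value is uncertain too. Of the transcriptional repressors, MYBL2 (-0.38, adjusted p = 0.0671) and the nitrate-responsive genes LBD37 (-0.40), LBD38 (-0.26) and LBD39 (-0.90) were not called, nor were MYB4 (0.39, adjusted p = 0.459) and MYB7 (0.58, adjusted p = 0.541), which lay above 0. KFB1, a related F-box gene under the filter, had 8, 16 and 5 counts in wild type, against 8, 9 and 16 in the mutant, and its groups overlapped. Wild-type replicate 3, the library that stood apart, was the lowest wild-type library for CHS, AT1G23390, KMD3, KFB20 and KFB50.

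**Figure D4:**
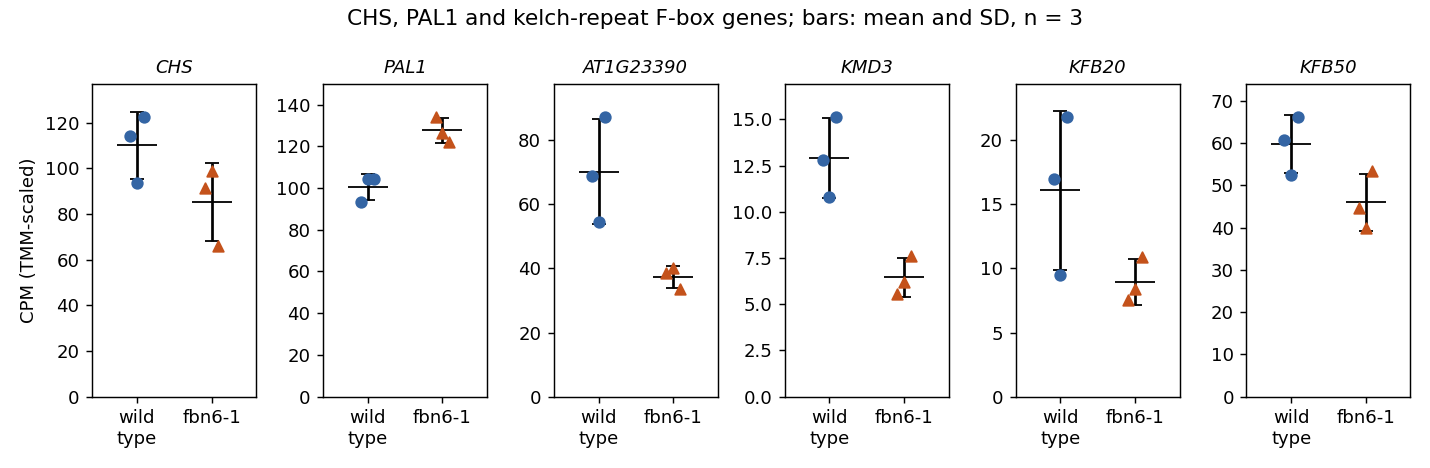
TMM-scaled CPM of CHS, PAL1 and 4 F-box genes in each library; circles are wild type, triangles are the mutant, and bars give the mean and SD of 3 libraries. The mutant libraries of AT1G23390 (33.6 to 40.2 CPM) and KMD3 (5.56 to 7.61 CPM) lie below all wild-type libraries, while those of CHS overlap them.

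Of 15 tested genes for light input to the pathway, 1 fell and 0 rose, with a median of -0.14. PIF4, a bHLH factor that acts with phytochrome B, had 39.8, 30.3 and 52.0 CPM in wild type, against 25.5, 26.0 and 26.1 CPM in the mutant, and fell by 0.66 (SE 0.16, adjusted p = 0.0324). Its call was lost with library-size scaling (adjusted p = 0.0903) and, with 1 library left out, held only without wild-type replicate 3. HY5, the bZIP activator whose binding site is the G-box shown above, stood at 2.03 ± 0.497 and 1.92 ± 0.958 CPM (log2 fold change -0.04, SE 0.37, 95% interval -0.84 to 0.75, adjusted p = 0.968; SD, n = 3 each). The ultraviolet receptor gene UVR8 (-0.03) and the photoreceptor gene CRY1 (-0.17) were not called. Over the 8 lists together, 5 of 57 tested genes were called lower and 0 higher, beside 2.34% lower and 1.48% higher of all tested genes. That balance depended on scaling. With library-size scaling 195 genes of the table were lower and 508 higher, and in the lists 2 were lower and 1 higher. Since the lists were chosen with earlier results known, their shares give no support beyond description. The leaf markers had a median log2 fold change of -0.26 with no call, and their part in the lower calls was not tested.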

How the data were processed

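Each library has a deposited file of raw gene counts, made by the authors with featureCounts after TopHat2 2.1.1, Trimmomatic and FastQC on the TAIR10 build (names from the submitters' processing notes, which give no order). No source used here states the annotation release or the settings for strand and multiply mapped reads. Names, exon lengths, overlaps and promoter windows came from RefSeq TAIR10.1, located through that assembly's own annotation; 36632 of 36917 identifiers matched.

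Genotypes were compared with edgeR 4.0.16 in R 4.3.3 (two-sided quasi-likelihood test, TMM, filterByExpr with minimum count 10 and minimum total 15), which kept 16584 genes. P-values were adjusted over these genes by the Benjamini-Hochberg method, and calls have adjusted p under 0.05. Intervals of log2 fold changes use the moderated t distribution. Without the low-count filter this was close to a normal distribution, because the spread was pooled almost wholly over genes. Pooled-count ratios have exact 95% binomial intervals for counting error only, and the limit for a count of 0 is 3 counts. The code was tested on simulated data. Of 200 genes simulated as changed, 191 passed the low-count filter again. Among these, the code called 67.0% of those with an absolute log2 fold change of 1 and 99.0% of those with 2. Of 174 calls, 15 were false. DESeq2 1.42.0 and limma 3.58.1 were alternatives.

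The members and lists were chosen with earlier results of these data known. Named genes are the 10 members, FBN6 and, per list, up to 3 called genes per direction by smallest adjusted p or, with none called, the 2 largest absolute log2 fold changes; the few others are said to be chosen after their values were seen, or illustrate their list.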

Additional observations from a re-analysis of the deposited data

How the results depend on the processing

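Called genes over the whole table numbered 633, but 1232 without the low-count filter, 220 at an adjusted p under 0.01, 191 with the replicate block and 272 to 1238 with 1 library left out (1238 without wild-type replicate 3). Higher genes made up 38.7% of the calls, but 72.3% with library-size scaling. Called members numbered 0, but 3 without the low-count filter, 0 to 2 with 1 library left out and, added after the data were seen, 0 to 3 without the filter and with 1 library left out (0 with DESeq2 unfiltered). With the filter, leaving out wild-type replicate 3 added CHS lower and LDOX higher, and leaving out mutant replicate 3 added LDOX; in both fits LDOX passed the filter only through mutant replicates 1 and 2, where it is high, so these calls add no support. Called genes of the 8 lists numbered 5, but 3 with library-size scaling (1 higher, 2 lower), 9 without the filter, 1 with the replicate block and 2 to 11 with 1 library left out (11 without wild-type replicate 3). The causes were not tested. Signs near 0 turned: CHI was -0.045 with limma-voom and -0.32 to 0.32 with 1 library left out (the same range without the filter, where it was -0.069 and -0.086 without wild-type replicates 2 and 4). F3H was 0.10 with library-size scaling, 0.24 with the replicate block and -0.12 to 0.12 with 1 library left out, filtered or not (0.084 unfiltered without mutant replicate 1). CHIL ranged from -0.0029 to 0.16 and TTG1 from -0.12 to 0.042 with 1 library left out. With library-size scaling OMT1 was 0.064, DTX35 0.0094 and TTG1 0.11, and TTG1 was 0.035 with the replicate block. DFR without the filter ranged from -0.32 to 0.67 with 1 library left out. The FLS1 to DFR ratio differed by 0.22 on the log2 scale, and by -0.59 to 0.70 with 1 library left out. The replicate numbers 2 and 3 occur in both genotypes but the labels do not say that they mark shared plants or days; deviations of same-numbered libraries from their group means correlated at -0.04 and 0.10 over genes. Replicate 1 occurs only in the mutant and replicate 4 only in wild type. With the replicate block the genotype difference therefore rests on replicates 2 and 3 alone. Calls lost there do not show what the replicate numbers contribute. With that replicate block AT1G23390 kept its call (-0.74, adjusted p = 0.0338), and UGT78D1 (-0.55, adjusted p = 0.274), RHM1 (-0.44, 0.261), KMD3 (-0.78, 0.159) and PIF4 (-0.42, 0.376) did not. The values of UGT78D1 and RHM1 were as large as without the block. Leaving out 1 library of 3 leaves a pair, and depth limits DFR, LDOX, MYB12, MYB111 and PAP1, which had at most 16 counts in any library.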
